A study of Mus musculus with 9 samples.

Results

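The comparison is between 2 times within annexin V-positive fibroblasts: cells collected after 1 h of MLKL activation, set against cells that the labels describe as sorted in the same way and then left for 6 h of washout. It uses 6 of the 9 arrays of the series, 3 in each group, and the other 3 are control arrays whose levels are given beside the results. Every gene with a probe set that names a single gene symbol was included, with the probe set of highest mean over the 9 arrays standing for the gene, which gave 22180 genes.

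The cells were hMLKL1-181-2Fv-NIH3T3, a mouse NIH3T3 fibroblast line that carries an engineered fusion of human MLKL, residues 1 to 181 by its name, with 2Fv, a domain by which the dimerizing ligand B/B brings fusion molecules together. All 3 groups carry this fusion, the control included. Both compared groups received 50 nM B/B for 1 h and were sorted for annexin V binding (AnnV+), and the second then had a washout at 3000 nM for 6 h, whose agent the labels do not name. The labels leave out the sorting and harvest time of the control cells, and do not say whether the 3 arrays of a group came from separate cultures, so p-values measure only the spread between these arrays. No array holds sorted cells kept for 6 h without washout, so washout, time after sorting and the earlier harvest cannot be told apart. Each array measures RNA from many cells, so fewer cells of a type and less RNA per cell cannot be told apart either.

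MLKL is the executioner protein of necroptosis, a regulated form of lytic cell death: once activated it oligomerizes and moves to the plasma membrane, which then loses integrity. Annexin V binds phosphatidylserine, a lipid that healthy cells hold on the inner leaflet of the membrane, and necroptotic cells can expose it before the membrane breaks. The ESCRT machinery, known for budding and scission of membranes, can shed damaged membrane and so delay lysis. Immediate-early genes respond to a stimulus with factors already present in the cell, and many of their transcripts are short-lived.

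Within a group the arrays correlated at 0.99767 or above over all genes. Control and B/B arrays correlated with each other at up to 0.99756, and washout arrays with either other group at up to 0.99309. Array medians ran from 4.60 to 4.68 on the log2 scale. Fibroblast genes were high on every array: the mean log2 level of 13 fibroblast markers was 9.24 to 9.25 on control arrays, 9.25 to 9.26 after B/B and 8.92 to 8.97 after washout. Of these 13 markers, 6 fell and 1 rose over washout. Markers of other cells were low on average, with array means of 5.04 to 5.11 after B/B and 4.97 to 5.0 after washout for 13 leukocyte markers. For 11 epithelial markers the array means were 4.71 to 4.80 after B/B and 4.66 to 4.70 after washout, and for 11 endothelial markers they were 4.63 to 4.76 and 4.59 to 4.70. The leukocyte genes Ptprc, Adgre1 and Lyz2 lay below 4.04, the level under which 30% of all genes lie, and none of them changed. In all, 5 of the 13 measured leukocyte markers had a mean under that level. Not all leukocyte markers were dim: Cd14 rose by 0.86, from a mean of 8.44 after B/B to 9.30, and Cd68 fell from 8.30 to 7.71. Cd79a and Coro1a fell too, and among the endothelial markers Cdh5 rose by 0.54. The call for Coro1a (-0.36, adjusted p = 0.031) was lost without B/B array 1, washout array 1 or washout array 3, with arrays numbered in accession order. No epithelial marker passed the test, and 1 did, as lower, without B/B array 1 or washout array 1. No endothelial marker fell, and 1 did without B/B array 2.

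Over washout 6345 genes changed at a Benjamini-Hochberg adjusted p under 0.05 in limma, which is 28.6% of those tested. Of these, 3687 rose (16.6%) and 2658 fell (12.0%). Most shifts were small: 274 genes (1.24%) changed at least 2-fold, of which 178 rose (0.803%) and 96 fell (0.433%). The 3 and 3 arrays did not overlap for 8777 genes (39.6%), with washout higher for 4686 (21.1%) and lower for 4091 (18.4%). Falls reached further than rises, since 6 genes fell by 3 or more log2 units and 2 rose by as much. Changes were most frequent among well-expressed genes: of the 7394 genes with the highest mean level 33.9% rose and 24.2% fell, whereas of the 7393 with the lowest 105 rose and 186 fell. The shares over all genes given below include these dim genes, so lists of well-expressed genes look more changed beside them.

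**Figure D1:**
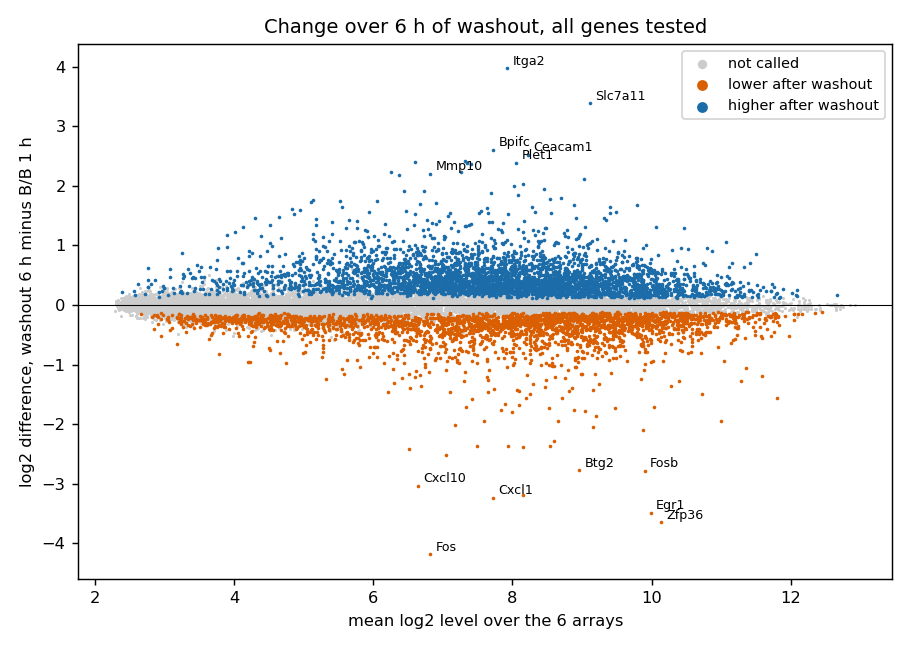
Log2 difference, washout 6 h minus B/B 1 h, against the mean log2 level over the 6 arrays, with 1 point per gene for 22180 genes. Orange points are the 2658 genes called lower, blue points the 3687 called higher and grey points the rest, and Fos at the bottom and Itga2 at the top are the outermost named genes.

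Many of the genes that fell furthest were immediate-early genes and genes of inflammation. Not all were off after washout: Egr1, Zfp36 and Fosb still had mean log2 levels of 8.24, 8.31 and 8.51. Fos, a subunit of the AP-1 transcription factor, stood at log2 levels of 8.93, 8.94 and 8.88 after B/B and 4.94, 4.66 and 4.57 after washout, with 6.97, 6.95 and 6.98 on control arrays. The washout arrays were thus the lowest of all 9. The fall over washout was 4.19 log2 units (SE 0.082), an 18.3-fold drop with adjusted p = 1.9e-09 in limma. Egr1, a zinc finger transcription factor, read 11.72, 11.73 and 11.75 after B/B and 8.24, 8.15 and 8.33 after washout, beside 10.79 on all 3 control arrays. Its fall was 11.3-fold, and again the washout arrays lay below both other groups.

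Zfp36, or tristetraprolin, which binds AU-rich elements and promotes decay of cytokine and immediate-early mRNAs, read 11.87, 12.06 and 11.95 after B/B. After washout it read 8.40, 8.37 and 8.15, and on control arrays 10.91, 10.95 and 10.91. It fell 12.6-fold (adjusted p = 2.1e-09 in limma), to levels under those of the control arrays. Fosb, another AP-1 subunit, and Btg2, an antiproliferative factor that aids deadenylation, each fell by 2.78 log2 units. Csrnp1, a nuclear transcription factor, and Egr2 each fell by 2.37, and on every washout array each of these genes was below its control arrays.

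A second pattern was seen in the chemokines Cxcl1 and Cxcl10, which attract neutrophils and activated T cells respectively. Cxcl1 read 9.29, 9.34 and 9.39 after B/B and 5.98, 6.17 and 6.13 after washout, with 6.46, 6.14 and 6.56 on control arrays. It fell 9.48-fold (SE of the log2 difference 0.100, adjusted p = 4.3e-08 in limma), and the washout and control arrays overlapped. Cxcl10 read 8.12, 8.21 and 8.15 after B/B and 5.12 on each washout array, beside 5.11, 5.12 and 5.04 on control arrays. Its fall was 8.22-fold, down to the control level. Tnfaip3 encodes A20, a ubiquitin-editing enzyme that restrains NF-kB signalling, and it fell by 2.37 from 8.82, 8.57 and 8.65 to 6.37, 6.25 and 6.31, against 6.58, 6.47 and 6.71 on control arrays. Lsmem1 went from 7.95, 7.49 and 7.70 to 5.09, 5.37 and 5.43, against 5.13, 4.86 and 4.93.

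Nfkbia encodes IkB-alpha, which keeps NF-kB out of the nucleus and is itself induced by NF-kB. It read 10.89, 10.96 and 10.94 after B/B and 8.80, 8.85 and 8.84 after washout. It fell by 2.10 log2 units (SE 0.041) and ended below its control arrays at 9.87, 9.92 and 9.92. Nr1d1, a heme-binding repressor of the circadian clock, differed from the others in its starting point. It read 10.16, 10.21 and 10.19 after B/B, close to 10.27, 10.40 and 10.38 on control arrays, and 8.14, 8.14 and 8.12 after washout. Tcim fell by 2.29 on the probe set used, but a second probe set for the gene differed by -0.10 and was not called.

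The genes that rose furthest were of mixed function. Before washout many overlapped their control arrays, but Slc7a11, Bpifc, Kdm7a, Zfp760 and Cgref1 lay below theirs. Cgref1 had a mean of 6.13 after B/B and 6.69 in the control. Itga2, the integrin alpha-2 chain that pairs with beta-1 as a collagen receptor, read 5.92, 5.80 and 6.09 after B/B and 9.92, 9.88 and 9.94 after washout. Control arrays read 6.05, 6.06 and 6.17, so the washout arrays stood apart from 6 others that overlapped one another. The rise was 3.98 log2 units (SE 0.070), or 15.8-fold, with adjusted p = 1.8e-09 in limma. Slc7a11, the cystine and glutamate antiporter that feeds glutathione synthesis, read 7.40, 7.39 and 7.48 after B/B and 10.84, 10.84 and 10.75 after washout, against 7.81, 7.74 and 7.77 on control arrays. It rose 10.5-fold, and its second probe set rose by 0.65 log2 units, so the size rests on the choice of probe set.

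Ceacam1, a cell adhesion molecule of the immunoglobulin superfamily, rose by 2.53 log2 units from 6.91, 7.03 and 6.94 to 9.45, 9.57 and 9.45. Bpifc, a member of the family of bactericidal/permeability-increasing fold proteins, rose by 2.60 from 6.31, 6.5 and 6.45 to 9.0, 9.02 and 9.04. Kdm7a, a histone lysine demethylase, rose by 2.42 from 5.95, 6.05 and 6.31 to 8.51, 8.49 and 8.55. For none of these 3 genes did any washout array overlap either other group. Plet1, a surface glycoprotein, was already higher after B/B (6.93, 6.74 and 6.90) than on control arrays (5.96, 6.00 and 6.04), and reached 9.33, 9.15 and 9.26. Trem3, a receptor of the triggering receptor family on myeloid cells, rose by 2.41, and Plek, the protein kinase C substrate pleckstrin of platelets and leukocytes, by 2.23. Both are genes of leukocytes. On the 6 arrays the common leukocyte gene Ptprc read 3.16 to 3.4, whereas the leukocyte marker Cd14 read 8.34 to 9.32.

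The other named rises were Zfp760, a zinc finger gene, by 2.37, Cgref1 by 2.24, and Mmp10, the secreted protease stromelysin-2, by 2.21. St6gal1, which adds terminal sialic acid to glycoproteins, rose by 2.18. Rin2, an exchange factor for the endosomal GTPase Rab5, rose by 2.12 from 7.93, 7.89 and 8.08 to 10.14, 10.07 and 10.06. All of these were called in limma with SEs of 0.056 to 0.090.

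**Figure D2:**
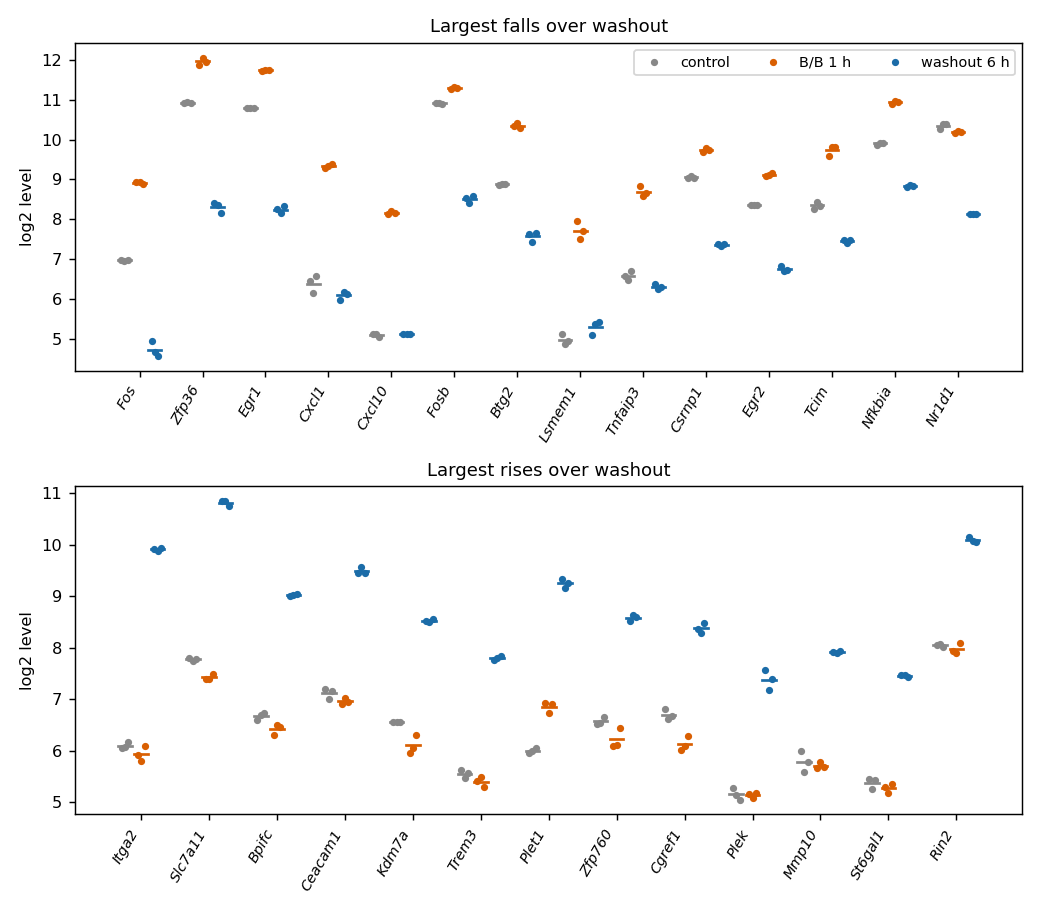
Log2 level on each array for the genes with the largest falls (top) and largest rises (bottom) over washout. Points are single arrays and bars are means of 3. Fos, Egr1 and Zfp36 end below the control arrays, and Cxcl10 ends at its control level of about 5.1. After B/B Plet1 stands above its control arrays, and Slc7a11, Bpifc, Kdm7a, Zfp760 and Cgref1 stand below theirs.

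Promoter sequence is shown for 9 genes of both groups, picked because their proximal promoters hold known elements of stimulus-responsive transcription. Sequences are from RefSeq on GRCm38.p6, 5′ to 3′ on the coding strand, ending at the last base before the transcription start, with matched motifs in capitals. Of the 28 genes with the largest changes, which do not include Mmp13, 25 had a promoter in the table. Not all of these promoters hold a searched motif. Among genes that fell, Cxcl1 (chr5:90891145-90891244, plus strand), Cxcl10 (chr5:92348890-92349058, minus strand) and Nfkbia (chr12:55492648-55492747, minus strand) hold NF-kB motifs. The Cxcl10 window also holds the AP-1 motif TGANTCA. Zfp36 (chr7:28379229-28379328, minus strand) holds a CArG box, the element bound by serum response factor, and Btg2 (chr1:134079156-134079331, minus strand) holds the cAMP response element TGACGTCA.
Cxcl1: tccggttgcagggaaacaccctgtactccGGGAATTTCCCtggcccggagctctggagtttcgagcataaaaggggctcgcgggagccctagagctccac
Cxcl10: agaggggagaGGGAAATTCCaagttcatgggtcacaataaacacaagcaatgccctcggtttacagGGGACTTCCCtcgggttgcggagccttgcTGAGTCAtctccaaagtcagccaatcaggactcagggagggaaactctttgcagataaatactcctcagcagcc
Nfkbia: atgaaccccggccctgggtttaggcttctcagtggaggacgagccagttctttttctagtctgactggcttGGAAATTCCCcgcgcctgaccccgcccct
Zfp36: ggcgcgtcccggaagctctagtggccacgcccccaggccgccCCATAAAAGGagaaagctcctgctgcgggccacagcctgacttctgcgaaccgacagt
Btg2: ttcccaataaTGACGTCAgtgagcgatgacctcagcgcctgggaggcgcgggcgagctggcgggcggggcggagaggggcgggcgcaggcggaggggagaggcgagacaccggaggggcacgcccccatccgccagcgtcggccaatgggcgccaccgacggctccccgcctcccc

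Among genes that rose, the windows of Mmp10 (chr9:7502242-7502341, plus strand), Mmp13 (chr9:7272414-7272513, plus strand), Plet1 (chr9:50494371-50494524, plus strand) and Bpifc (chr10:86011861-86011960, minus strand) each hold an AP-1 motif, and the first 3 also hold the TATA motif TATAAA.
Mmp10: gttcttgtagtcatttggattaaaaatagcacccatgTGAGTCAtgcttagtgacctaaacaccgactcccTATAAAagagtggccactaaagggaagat
Mmp13: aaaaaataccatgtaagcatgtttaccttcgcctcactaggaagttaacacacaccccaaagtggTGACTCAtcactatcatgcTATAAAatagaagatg
Plet1: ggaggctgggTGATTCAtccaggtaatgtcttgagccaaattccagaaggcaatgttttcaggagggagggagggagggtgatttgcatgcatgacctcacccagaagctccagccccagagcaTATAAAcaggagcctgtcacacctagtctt
Bpifc: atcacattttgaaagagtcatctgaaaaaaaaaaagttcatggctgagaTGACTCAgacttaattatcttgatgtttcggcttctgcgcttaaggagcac

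Across the sets, 8 motifs were searched on both strands in the 250 bases before the start. Of genes that fell at least 2-fold, 62 of 96 had promoters in the table, 76 in all, and of genes that rose at least 2-fold, 140 of 178 had promoters, 175 in all. An NF-kB motif was in 13.2% of promoters of the falling set, 2.86% of the rising set and 4.21% of 20611 promoters of tested genes. The AP-1 motif was in 11.8%, 9.14% and 6.37% in the same order. The CArG box was in 7.89%, 1.14% and 1.3%, although its 6 promoters in the falling set belong to 3 genes. The cAMP response element was in 5.26%, 1.71% and 2.0%, and the E-box CACGTG in 14.5%, 8.57% and 6.82%. The core of the antioxidant response element, TGACNNNGC, which can overlap an AP-1 motif, was in 19.7%, 16% and 10.8%. The TATA motif was in 10.5%, 11.4% and 11.3%. The heat shock element was in none of either set and in 0.432% of promoters of tested genes. These shares describe letters in the windows and were not tested.

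Taking the immediate-early genes as a group, most of them transcription factors, 28 of 32 measured members fell and none rose. The median difference was -1.29, beside 12.0% called lower and a median of -0.02 over all genes. The members not called were Atf3, Maff, Arc and Cebpd. Below the AP-1 and Egr genes already described stood the Kruppel-like factor Klf2 at -2.01, the orphan nuclear receptor Nr4a1 at -1.95, and the AP-1 subunits Jund at -1.95, Junb at -1.86 and Jun at -1.56. Jun was still at a mean log2 level of 11.02 after washout, down from 12.58, whereas Fos ended at 4.72. Myc fell by 0.31.

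Brakes on MAP kinase and NF-kB signalling were split. Of 17 MAP kinase phosphatases and Sprouty family genes, 7 fell (41.2%) and 4 rose (23.5%), beside 12.0% and 16.6% of all genes. Dusp1, a nuclear phosphatase of p38 and JNK, fell by 1.27 from 11.93, 11.88 and 11.96 to 10.62, 10.64 and 10.69. Dusp8 fell by 0.98 and Dusp10 by 0.56, while Dusp4, a phosphatase of ERK, rose by 0.67 and the Sprouty-related inhibitors Spred1 and Spred2 by 0.47 and 0.50. Of 22 NF-kB subunits and feedback genes, 6 fell (27.3%) and 9 rose (40.9%). Beside Tnfaip3 and Nfkbia, the falling members included Nfkbiz, a nuclear co-regulator, by 1.76, the deubiquitinase Cyld by 0.95 and the subunit Rel by 0.70. The risers were smaller except for the pseudokinase Trib3 at 1.04: they included the kinase subunits Ikbkg at 0.53 and Ikbkb at 0.48 and the precursor gene Nfkb2 at 0.39.

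The mRNA decay regulators also moved both ways, with 8 of 22 lower (36.4%) and 9 higher (40.9%), beside 12.0% and 16.6% of all genes. None of the 22 lay among the dimmest 30% of genes, and of the 7394 with the highest mean level 24.2% fell and 33.9% rose. Those that fell were the AU-rich element binding proteins and antiproliferative factors: Zfp36, Zfp36l1 (-0.99), Zfp36l2 (-0.71), Btg2, Btg1 (-0.70), Tob1 (-0.34) and Tob2 (-0.45), with the endonuclease Zc3h12a (-0.75). Those that rose included deadenylase subunits of the CCR4-NOT complex, Cnot6 (0.32), Cnot7 (0.32) and Cnot8 (0.41), and the stem-loop binding roquins Rc3h1 (0.25) and Rc3h2 (0.57).

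Among 36 chemokines and cytokines 13 fell (36.1%) and 4 rose (11.1%), beside 12.0% and 16.6% of all genes, with a median of -0.12. Ccl7, a monocyte chemoattractant, fell by 1.77 from 9.75, 9.79 and 9.77 to 7.99, 8.05 and 7.95, below control arrays at 9.53, 9.54 and 9.58. Ccl2, its neighbour in the genome, fell by 0.70, Csf1, the macrophage growth factor, by 0.78, and Lif, a cytokine of the interleukin-6 family, by 0.78. The risers were of a different kind. Il33, a nuclear alarmin, rose by 1.71 from 5.99, 5.98 and 6.17 to 7.67, 7.83 and 7.78, and Il34, a second ligand of the macrophage receptor CSF1R, rose by 1.26. Il1a rose by 0.76 from a mean near 3.4, within the range of the dimmest genes, and Ccl25 rose by 0.31. Tnf, Il1b and Il6 were not called.

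Secreted growth factors and growth factor receptors moved both ways. Of 30 growth factor ligands 9 fell and 8 rose. Vegfd, a lymphangiogenic factor, fell by 1.68 from 8.86, 8.96 and 8.97 to 7.23, 7.16 and 7.35. Fgf18 fell by 1.31 and Nrg1, an ErbB ligand, by 1.09, while Fgf2 rose by 1.19 from 8.38, 8.45 and 8.28 to 9.48, 9.61 and 9.59. Of 26 receptor tyrosine kinases 5 fell (19.2%) and 7 rose (26.9%). Among the 7394 genes with the highest mean level 24.2% fell and 33.9% rose. Pdgfrb, the receptor for PDGF-B, fell by 1.44 from 9.56, 9.58 and 9.45 to 8.10, 8.10 and 8.08, whereas Pdgfra rose by 0.51, Fgfr1 by 1.11 and Erbb2 by 0.55. In the Notch and TGF-beta group 4 of 29 fell (13.8%), near the share over all genes, and 7 rose (24.1%). Without B/B array 2, washout array 1 or washout array 3 only 4 rose. The Notch target Hes1 fell by 1.47 while the ligand Jag1 rose by 1.64, from 8.60, 8.54 and 8.60 to 10.18, 10.17 and 10.31.

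Some of the largest rises were in single genes of adhesion and pericellular proteolysis, while structural matrix genes moved mainly down. Of 20 integrin subunits 4 rose (20%) and 3 fell (15%), near the 16.6% and 12.0% over all genes. Beside Itga2, Itgb3, the beta chain of the vitronectin receptor, rose by 1.79 from 7.53, 7.78 and 7.63 to 9.40, 9.40 and 9.50, and Itga3 and Itga6 rose by 0.21 and 0.17. Of 24 genes of the plasminogen system and matrix proteases 9 rose and 6 fell. Plat, tissue plasminogen activator, rose by 1.68 from 8.96, 8.92 and 8.96 to 10.64, 10.55 and 10.68, and its control arrays were lower than both at 8.32, 8.35 and 8.35. Mmp13, collagenase-3, rose by 1.55, Timp1, an inhibitor of metalloproteinases, by 0.71, and Plaur, the urokinase receptor, by 0.67. Mmp10 and Mmp13 lie in a cluster of metalloproteinase genes on chromosome 9, of which 8 others were measured and not called.

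Of 27 collagen and matrix genes 14 fell (51.9%) and 1 rose (3.7%), beside 12.0% and 16.6% of all genes. The riser was the glycoprotein Tnc, by 0.19. The median difference was -0.23. Col5a2 fell by 1.09 and Thbs1, an adhesive glycoprotein, by 1.05. Col1a2, a chain of type I collagen, fell by 0.94 from 10.60, 10.61 and 10.67 to 9.69, 9.68 and 9.68, and its second probe set differed by -1.60. Fn1, fibronectin, was not called (-0.07). Of 27 actin and SRF target genes 16 fell (59.3%) and none rose, with a median of -0.27. Myl9, a regulatory myosin light chain, fell by 1.39 from 9.49, 9.62 and 9.58 to 8.09, 8.18 and 8.23. Acta2, smooth muscle actin, fell by 0.51 and Tagln by 0.54.

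Several repressor and output genes of the circadian clock fell while the activator Arntl rose. In this clock ARNTL and CLOCK drive transcription of Per, Cry, Nr1d and PAR bZIP genes, whose products feed back. Of 18 measured members 10 fell (55.6%) and 3 rose (16.7%), beside 12.0% and 16.6% of all genes, with a median of -0.40. Per1 fell by 1.79 from 8.87, 8.85 and 8.93 to 7.16, 6.98 and 7.14, Per3 by 0.71 and Nr1d2 by 0.61. The PAR bZIP output factors Dbp, Hlf and Tef fell by 0.91, 0.71 and 0.47, Nfil3 fell by 0.82, and the repressor Bhlhe40 fell by 1.16. Arntl rose by 1.53 from 7.03, 7.21 and 7.29 to 8.67, 8.80 and 8.65, against 7.71, 7.56 and 7.77 on control arrays. Clock rose by 0.33, and Cry1 and Cry2 were not called.

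**Figure D3:**
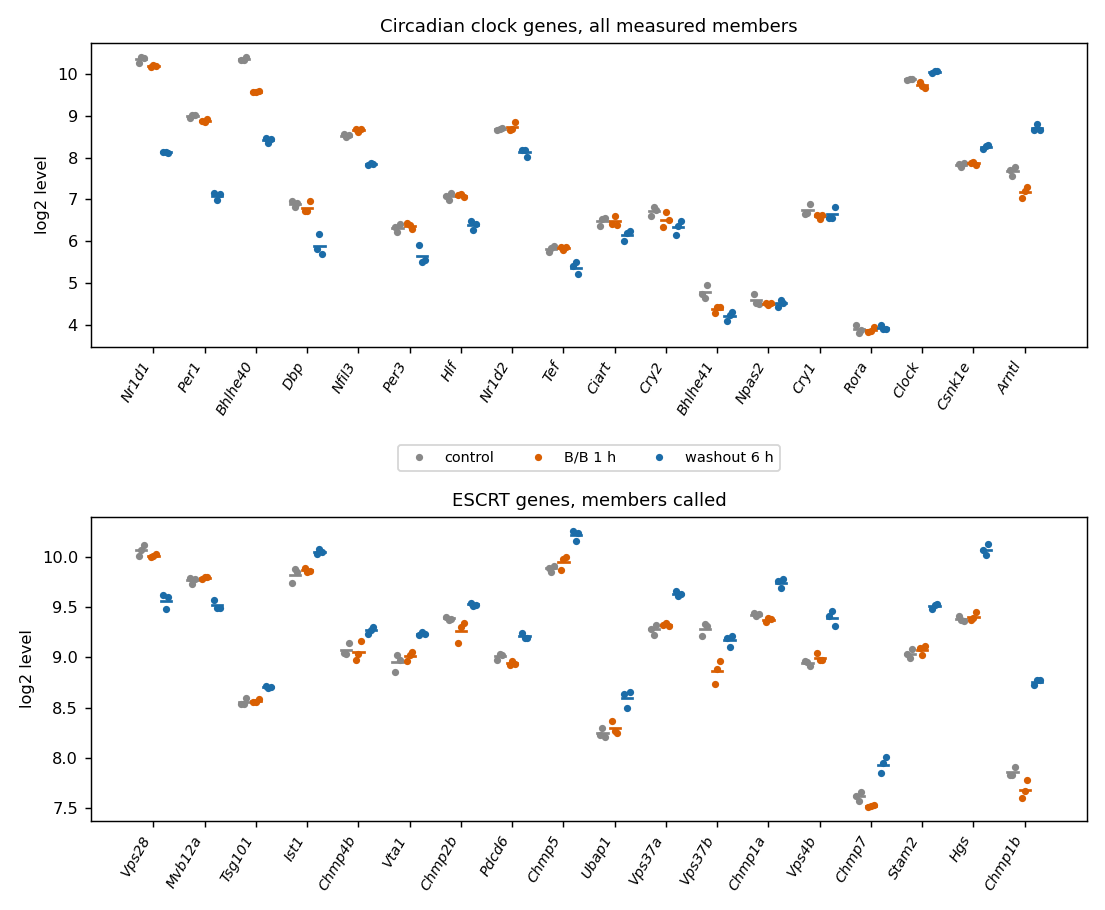
Log2 level on each array for all 18 measured clock genes (top) and the 18 called ESCRT genes (bottom), each ordered by its difference over washout. Points are single arrays and bars are means of 3. Nr1d1 and Per1 drop by about 2 log2 units while Arntl rises, and Chmp1b and Hgs show the largest ESCRT rises.

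More ESCRT genes rose than fell, most of them by small amounts. Of 30 measured genes 16 rose (53.3%, beside 16.6% of all genes), 2 fell and 12 were not called, and the median difference was 0.16. None of the 30 lay among the dimmest 30% of genes. Of the 7394 genes with the highest mean level 33.9% rose, so the share over all genes makes the contrast look larger. Chmp1b, a subunit of the ESCRT-III filament that recruits the VPS4 ATPase, rose by 1.07 (SE 0.053, adjusted p = 7.2e-07 in limma). Its arrays read 7.60, 7.67 and 7.78 after B/B, 8.73, 8.77 and 8.77 after washout and 7.83, 7.83 and 7.91 in the control. The ESCRT-0 genes Hgs and Stam2, which bind ubiquitinated cargo, rose by 0.67 and 0.44. Among other ESCRT-III genes Chmp7 rose by 0.41, Chmp1a by 0.37, Chmp5 by 0.27, Chmp2b by 0.26 and Chmp4b by 0.21, while Chmp2a, Chmp3, Chmp4c and Chmp6 were not called. The ATPase gene Vps4b rose by 0.40 and Vps4a was not called (-0.11). ESCRT-I genes were divided: Vps37a and Vps37b rose by 0.31 each and Tsg101 by 0.14, while Vps28 fell by 0.45 and Mvb12a by 0.28.

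Among genes for annexins, caveolae and other membrane repair proteins 11 of 31 fell (35.5%) and 6 rose (19.4%), with a median of -0.07. Over all genes the shares were 12.0% and 16.6%. Cavin2 and Cav2, components of caveolae, fell by 0.95 and 0.72. Ano6, a calcium-dependent scramblase that exposes phosphatidylserine, rose by 0.64 from 9.68, 9.65 and 9.52 to 10.24, 10.29 and 10.23, and Xkr8, a caspase-activated scramblase, rose by 0.33. Anxa8 rose by 1.02, and Anxa5, the gene of annexin V itself, differed by 0.00. In the lysosome and autophagy group 14 of 36 rose (38.9%) and 3 fell (8.33%). Npc1, a lysosomal cholesterol transporter, rose by 0.76 on the probe set used, while its second probe set differed by -0.16 and was not called, and the average of both rose by 0.30. Other risers were the autophagy conjugation genes Atg5 by 0.54 and Atg16l1 by 0.46.

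Genes of the necroptosis pathway moved both ways, and none by more than 0.95. Mlkl read 9.46, 9.48 and 9.53 after B/B and 9.07, 9.12 and 9.17 after washout, a fall of 0.37 (SE 0.053, adjusted p = 5.4e-04 in limma), with control arrays at 9.66, 9.52 and 9.67. Whether this probe set also measures the human fusion was not examined, so it gives no check of the engineered construct. Ripk3, the kinase that phosphorylates MLKL, lay between 4.07 and 4.58 on the 6 arrays and was not called (adjusted p = 0.48 in limma). Of 26 genes of necroptosis and death receptor signalling 6 rose (23.1%) and 5 fell (19.2%), beside 16.6% and 12.0% of all genes. Casp9 rose by 0.54 and Cflar, an inhibitor of caspase-8, by 0.35, and the adaptor Ticam1 fell by 0.65. In the BCL-2 family 3 of 17 rose (17.6%) and 2 fell (11.8%), near the shares over all genes. Bcl2l1, which encodes the survival protein BCL-XL, rose by 0.50 and Bnip3 fell by 1.27. Mcl1 fell by 0.41 on the probe set used, but its second probe set differed by -0.17 and was not called. Of 22 p53 targets 4 rose (18.2%), near the share over all genes, and 6 fell (27.3%), and Cdkn1a and Mdm2 were not called.

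Of 25 measured antioxidant genes 13 rose (52%) and 4 fell (16%), beside 16.6% and 12.0% of all genes, with a median of 0.19. The share that fell was thus near that over all genes, and 2 fell without B/B array 2 or washout array 2. After Slc7a11 came Txnrd1, thioredoxin reductase, by 1.06 from 10.54, 10.51 and 10.59 to 11.59, 11.62 and 11.60, and Gsta4 by 0.84. Nqo1, a quinone reductase, rose by 0.71, Srxn1 by 0.54, Hmox1, heme oxygenase 1, by 0.47 and Gclm, the modifier subunit of the rate-limiting enzyme of glutathione synthesis, by 0.46. The catalytic subunit Gclc fell by 0.15 and Gpx4, which reduces lipid peroxides, by 0.22. Of 22 amino acid transporters 10 rose (45.5%, beside 16.6% of all genes) and 3 fell (13.6%), the latter near the 12.0% over all genes. The glutamate transporter Slc1a3 fell by 1.36 from 7.36, 7.44 and 7.30 to 6.05, 5.96 and 6.01.

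Glycolysis and hypoxia genes fell in 17 of 28 cases (60.7%) and rose in 6 (21.4%), beside 12.0% and 16.6% of all genes, with a median of -0.22. The 3 phosphofructokinase genes parted: Pfkp rose by 2.04 from 7.11, 7.01 and 7.27 to 9.14, 9.10 and 9.27, and Pfkl and Pfkm fell by 0.88 and 0.57. Pdk1, which holds pyruvate dehydrogenase inactive, fell by 0.72 and Eno2 by 0.89. Of 40 respiratory chain genes 18 fell and none rose, with no fall over 0.46. The proteasome list had 10 of 30 lower and the cytosolic ribosomal proteins 5 of 42, the latter at the background share. The ribosomal protein count was 2 without washout array 1 and 3 without B/B array 2, B/B array 3 or washout array 3, and 1 gene rose without B/B array 3 or washout array 3.

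**Figure D4:**
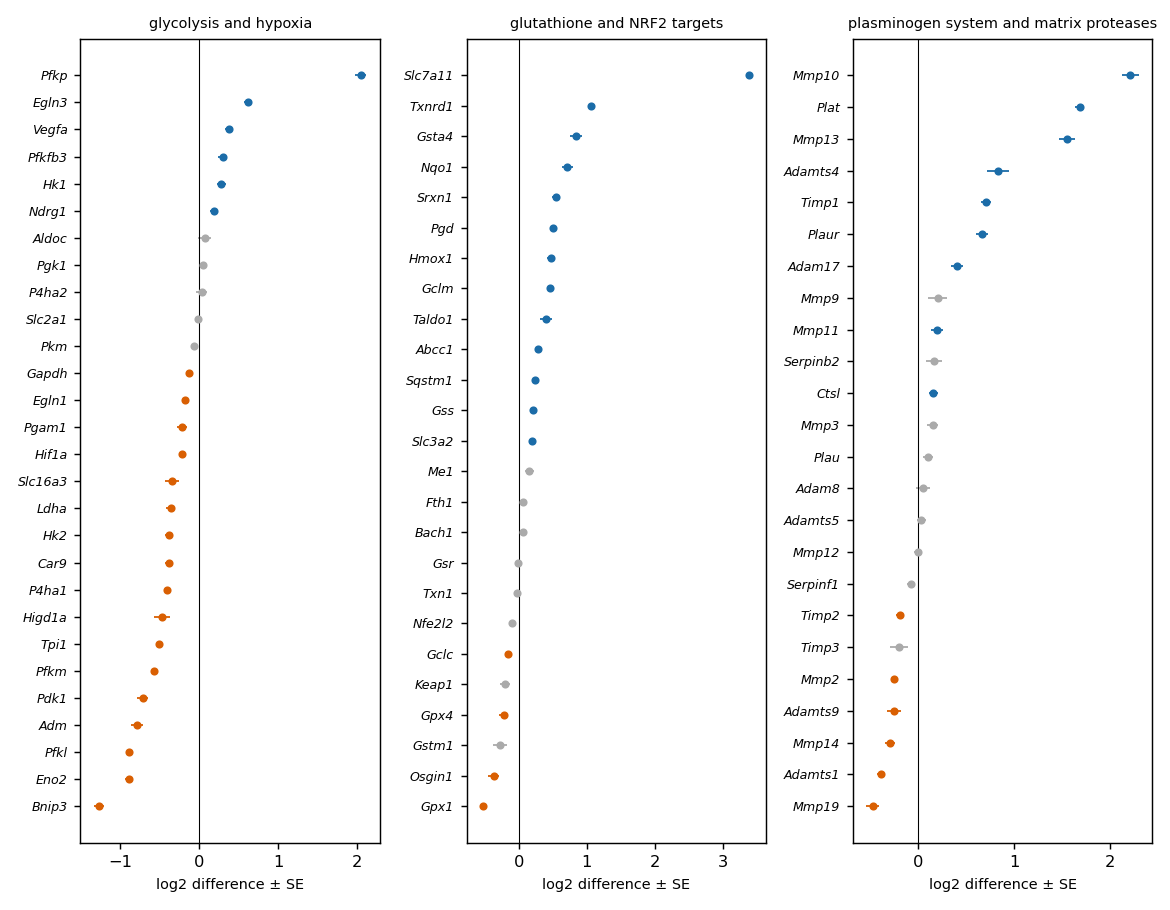
Log2 difference, washout 6 h minus B/B 1 h, with SE for every measured member of 3 gene lists. Blue marks genes called higher, orange genes called lower and grey genes not called. Slc7a11, Pfkp and Mmp10 stand at the upper end of their lists.

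More stress-response genes fell than rose. Of 34 genes of the unfolded protein and integrated stress response 12 fell (35.3%) and 6 rose (17.6%), beside 12.0% and 16.6% of all genes. Ppp1r15a, or GADD34, which directs dephosphorylation of eIF2alpha, fell by 1.67 from 8.69, 8.75 and 8.74 to 7.13, 7.03 and 7.01, and Ddit3, or CHOP, fell by 1.02. Ern1, the sensor IRE1alpha, rose by 1.07, and Atf4 and Hspa5 were not called. Of 22 heat shock and chaperone genes 9 fell (40.9%) and 3 rose (13.6%), or 1 rose without B/B array 1 or washout array 3. Dnajb1 fell by 1.14 from 9.98, 9.99 and 10.01 to 8.85, 8.79 and 8.92, beside control arrays at 8.84 to 8.95. Hspa1b fell by 0.78 from 10.87, 10.77 and 10.83 to 10.01, 10.06 and 10.06, still above its control arrays at 9.22, 9.24 and 9.34. It has a near-identical copy, Hspa1a, so its level is uncertain. Of 34 interferon-stimulated genes 4 rose and 5 fell, near the background shares, and Stat2 rose by 0.86.

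Proliferation genes fell by modest amounts. Of 33 genes of G2 and mitosis 23 fell and 1, Aurka, rose, with a median of -0.30. Ccnb2, a mitotic cyclin, fell by 0.75, and Mki67, the proliferation marker, by 0.68 from 10.28, 10.20 and 10.17 to 9.52, 9.71 and 9.39. Of 33 genes of G1 and S phase 19 fell (57.6%) and 4 rose (12.1%), beside 12.0% and 16.6% of all genes, with a median of -0.29. Only 2 rose without control array 1, B/B array 1 or any single washout array. Uhrf1, which maintains DNA methylation at replication forks, fell by 0.85, and Ccnd3 and Ccne1 by 0.62 and 0.61, while Ccnd1 rose by 0.23 and Cdk6 by 0.35. The histone demethylase and chromatin list had 6 of 26 higher (23.1%) and 5 lower (19.2%). The class IIa deacetylase genes Hdac9, Hdac5 and Hdac7 fell by 1.05, 0.67 and 0.51, and Kdm4a rose by 0.57. Cholesterol and fatty acid synthesis genes were mixed, with 8 of 24 lower and 6 higher and no difference beyond 0.55 in size, and ribosome biogenesis genes were mixed likewise, with 10 of 36 lower and 8 higher. Without washout array 1 the cholesterol list had 5 lower, and without B/B array 2 or washout array 2 the ribosome biogenesis list had 5 higher.

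**Figure D5:**
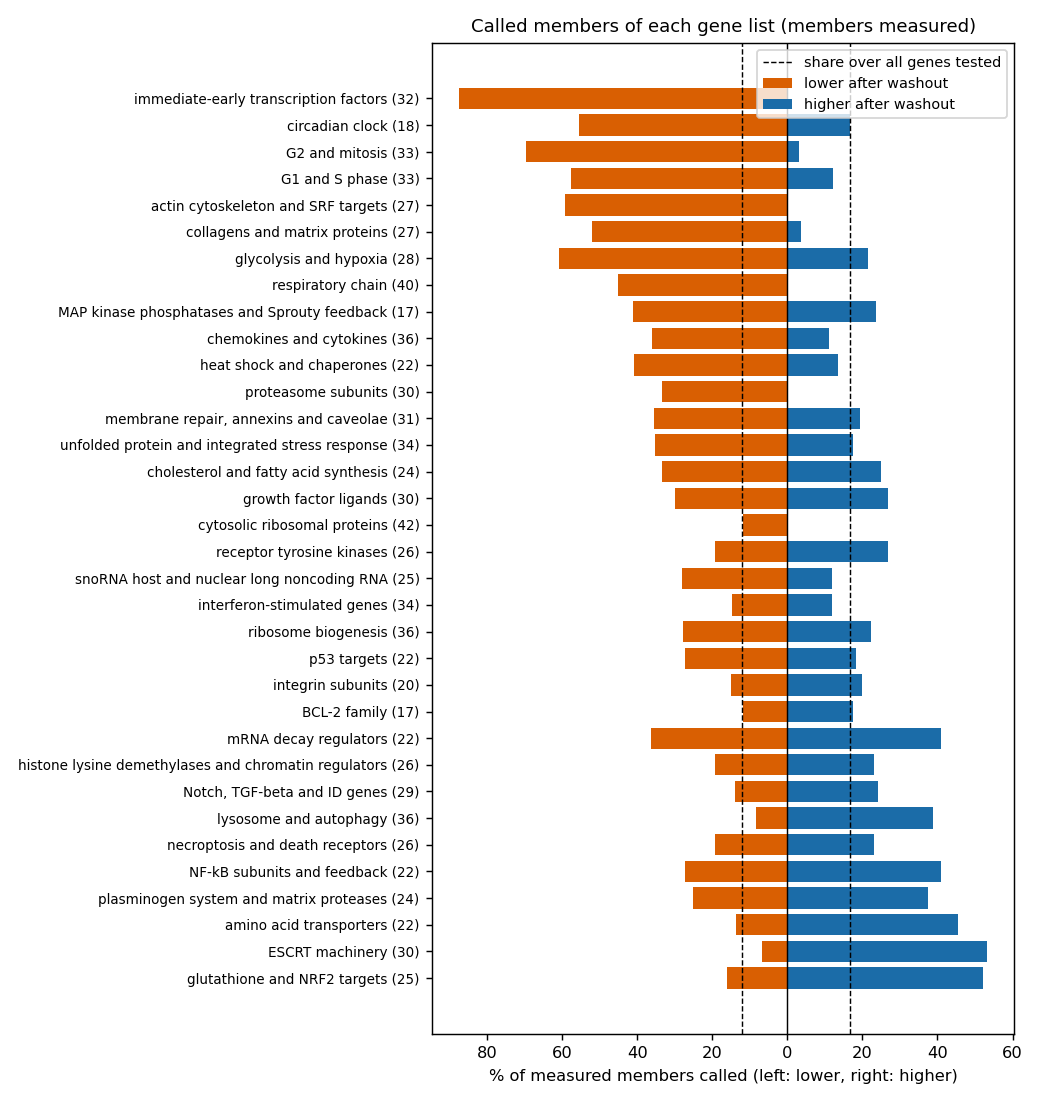
Share of measured members called lower (left, orange) and higher (right, blue) in each of 34 gene lists, ordered by median difference, with the number measured in parentheses. Dashed lines mark the shares over all genes, 12.0% lower and 16.6% higher, which include dim genes that were seldom called. Immediate-early genes reach 87.5% lower and ESCRT genes 53.3% higher.

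A few small RNA genes were among the largest changes. The mature sequences of the microRNAs concerned are shown with the seed, bases 2 to 8 from the 5′ end, in capitals, because the seed sets which transcripts a microRNA can pair with. They are from RefSeq on GRCm38.p6. The first 3 belong to genes that fell and the last 3 to genes that rose. They lie at chr12:40222782-40222803 (minus strand), chr8:84208563-84208583, chr8:84208727-84208747, chr9:41581940-41581961, chr10:128085291-128085312 and chr14:115043867-115043889 (all plus strand) in the order printed. The 6 seeds are all different.
miR-1938: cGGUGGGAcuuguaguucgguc
miR-23a-3p: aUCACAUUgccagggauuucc
miR-27a-3p: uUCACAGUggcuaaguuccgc
miR-125b-5p: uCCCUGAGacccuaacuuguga
miR-677-5p: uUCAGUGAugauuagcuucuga
miR-18a-5p: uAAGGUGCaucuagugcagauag

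Mir1938 read 9.86, 9.61 and 9.80 after B/B and 6.59, 6.52 and 6.58 after washout, beside 7.09, 6.99 and 7.11 on control arrays, a fall of 3.20 (adjusted p = 3.1e-09 in limma). It lies within Ifrd1, itself down by 0.68, and Ifrd1 neighbours Lsmem1, down by 2.42. Mir23a and Mir27a, neighbours in one cluster, fell by 2.52 and 2.39. Mir23a read 8.45, 7.95 and 8.51 after B/B and 5.22, 5.95 and 6.20 after washout, a wide spread for these data (SE 0.228). Mir125b-1 rose by 1.60 with an SE of 0.254, from 3.45, 4.02 and 4.59 to 5.70, 5.67 and 5.52, and its control arrays lay between these groups at 5.50, 5.09 and 4.84. Mir677, within Atp5b, which was not called, rose by 1.44 from a mean of 4.46 to 5.89, beside 6.27 in the control. Mir18 rose by 1.39 from a mean of 4.70 to 6.09, beside 5.76 in the control, and its neighbour Mir19a rose by 1.34. The pseudogene Mfsd4b3-ps rose by 1.54. Over all microRNA genes 29 of 478 rose (6.07%) and 35 fell (7.32%), shares below the 16.6% and 12.0% over all genes. Whether these probe sets measure the hairpin, its host transcript or the mature form was not tested.

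Small nucleolar RNAs, which guide modification of ribosomal RNA and are mostly cut from introns of host genes, fell in 30 of 80 cases (37.5%) and rose in 6, with a median of -0.19. Snora28 fell by 1.73 from 9.45, 9.29 and 9.44 to 7.77, 7.64 and 7.60, while Eif5, the gene that contains it, rose by 0.32. Of the 30 that fell, 23 lie within the bounds of a measured gene on either strand, and that gene fell in 8 cases, rose in 4 and was not called in 11. Among long noncoding host and nuclear RNAs 7 of 25 fell (28.0%) and 3 rose (12.0%), beside 12.0% and 16.6% of all genes. Neat1, the scaffold of paraspeckles, fell by 0.76, and the snoRNA hosts Snhg18 and Snhg12 fell by 0.65 and 0.56.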

How the data were processed

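Total RNA (Trizol) was labelled as biotinylated cRNA for Affymetrix arrays, per the labels' protocols. The authors deposited normalized log2 values per probe set, made with Partek 6.6 per the submitters' processing notes. The normalization method is not given in the sources used here, and base 2 was inferred from the values. Of 41345 probe sets 23521 name 1 gene symbol, 1814 several and 16010 none.

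Group means of 3 groups over 9 arrays were fitted with limma 3.58.1 (R 4.3.3) on the deposited log2 values, with no filter, and p-values were adjusted by Benjamini-Hochberg over 22180 genes. There were 6 residual degrees of freedom, and the median SE of a difference was 0.0636. Array number, 3 a group, limits the precision. The fit was tested on simulated data.

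Named genes were the 14 largest changes in each direction among protein-coding genes called without overlap of arrays, leaving out clone names, the 4 largest each way among other genes, up to 4 called members of each list, Mlkl and Ripk3. Other members in the text were chosen after their values were seen. A gene among the 14 highest is not reported here. The members and lists were chosen with earlier results of these data known. The lists were described by counts and not tested. Alternatives were array quantile normalization, centred medians, other probe set rules, a filter on dim genes, array weights, a trend in the prior, a stricter threshold, only 2 groups, and leaving out each array.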

Additional observations from a re-analysis of the deposited data

How the results depend on the processing

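No paired analysis was possible because the labels carry no replicate numbers. Under 18 alternatives, 156 of 161 named genes kept direction and call, and none reversed. Coro1a, Rpl34 and Rps20 lost their calls without 1 of several arrays, with adjusted p up to 0.106, 0.090 and 0.113 in limma, and Bok and Tradd lost theirs at an adjusted p under 0.01. The number called ran from 5505 to 6145 when single arrays were left out. At an adjusted p under 0.01 it was 4565, with 1730 genes lower in place of 2658 because the threshold is stricter. The share of calls that were higher was 58.1%, 50.6% with quantile normalization and 65.8% with array medians centred. Centring moved the median difference over all genes from -0.0204 to 0.0126. Of 76 list counts 20 moved by over 1.5 times somewhere: with quantile normalization ESCRT genes called lower were 5 in place of 2 and lysosome genes 7 in place of 3, and with medians centred proteasome genes called lower were 6 in place of 10. Averaging probe sets made the difference -1.19 for Tcim, 2.02 for Slc7a11 and 0.30 for Npc1. Low signal limits what can be read from the dimmest genes, where few calls were made.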

Other observations

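Genes named Zfp with a number, which encode zinc finger proteins, were examined after their values were seen. Of 362 such genes 203 rose over washout (56.1%) and 16 fell (4.42%), with a median difference of 0.29, and 23 rose at least 2-fold. Over the other 21818 genes 16% rose and 12.1% fell, with a median of -0.02. By mean level, 65 of the 362 lay among the 7393 lowest genes. No test was run on this group.

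Within the metalloproteinase cluster on chromosome 9, where Mmp10 rose by 2.21 and Mmp13 by 1.55, the neighbours Mmp8 (0.03), Mmp12 (0.00), Mmp3 (0.16), Mmp1a (0.06), Mmp1b (-0.09), Mmp7 (-0.13), Mmp20 (-0.10) and Mmp27 (-0.03) were not called. Next to Mir18 and Mir19a, Mir20a rose by 0.26 and Mir17 was not called (0.06). Mir181c and Mir181d, which adjoin Mir23a in the list of measured genes, were not called.

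Of probe sets left out of the comparison, 436 of 1814 that name several genes were called (24%), and of 16010 that name none, 1309 were called (8.18%), with 203 at least 2-fold higher and 194 at least 2-fold lower. For 12 genes different probe sets were called in opposite directions.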
